A study of Mus musculus with 12 samples.

Results

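The subunits that set the BAF, PBAF and ncBAF forms of the SWI/SNF complex apart were examined in 12 mouse rhabdoid tumors, together with accessory subunits. They are 10 genes, of 24060 gene rows measured, picked by their place in the complex. No measured value was used to pick them, though earlier results of these data were known. The genes are Arid1a and Arid1b for BAF, Arid2, Pbrm1 and Brd7 for PBAF, Brd9 for ncBAF, the accessory subunits Bcl7a, Bcl7b and Bcl7c, and Bcl11a. All 10 had a row in every tumor.

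Every tumor came from a P0-CreC;Smarcb1flox/flox mouse on the FVB/N background, in which the P0 promoter drives Cre in neural crest cells early in development and so removes Smarcb1 from them and from their descendants. The tumors formed without further treatment and were frozen after dissection, and the ages of the animals at dissection were not given in the sources used here. The labels place 4 tumors as Retro-orbital, 3 as Cheek, 3 as Meninges, 1 as Vestibular N and 1 as Trigeminal N. No tissue with intact Smarcb1 was analysed here, so each comparison is between tumors that share the deletion. Tumor numbers within a location are names given in accession order. From their identifiers, Cheek tumor 1 and Meninges tumor 1, Cheek tumors 2 and 3, and Retro-orbital tumor 3 and Trigeminal N tumor 1 share a common number. The sources used here do not say if such a pair was taken from 1 animal.

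SWI/SNF complexes use the energy of ATP to move nucleosomes and open chromatin, and they are assembled from a shared core around the ATPases Smarca4 or Smarca2. An ARID subunit then decides the form: Arid1a or Arid1b, which exclude one another, build BAF, while Arid2 builds PBAF and brings in Pbrm1 and Brd7. The ncBAF form has no ARID subunit and no Smarcb1, and is marked by Brd9. Rhabdoid tumors are known for the loss of Smarcb1, a core subunit of BAF and PBAF.

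Smarcb1 itself stood between 1.70 RPKM in the Vestibular N tumor and 6.31 RPKM in Meninges tumor 3. RPKM divides the reads of a gene by its transcript length and by the mapped reads of the library, so the order of different genes depends on the length chosen for each. Remaining exons of the deleted allele and cells without the deletion cannot be told apart as the source of these reads. Between 12575 and 14528 genes per tumor reached 1 RPKM, and the totals recovered from the steps between low values ran from 13206168 fragments in Cheek tumor 3 to 57128422 in Retro-orbital tumor 3. In these bulk tumors a change in the share of cells of a type and a change in RNA per cell cannot be told apart. Of the markers stained in the study, Vim, Acta2 and Fabp7 together with Smarcb1 summed to 130.1 to 3060.2 RPKM, most of it from Vim, at 114.0 and 3000.8 RPKM in the same tumors, while Fabp7 was as low as 0.0637 RPKM in Retro-orbital tumor 4. Markers of other tissues were present as well, with skeletal muscle genes at 3.796 to 346.2 RPKM and leukocyte genes at 96.6 to 513.2 RPKM in sum. P-values measure the spread between these tumors, some of which may share an animal.

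Of the 10 genes, 9 were expressed above 1 RPKM in all 12 tumors, and 8 of them above 10 RPKM, so the genes of BAF, PBAF and ncBAF were all transcribed in each tumor. The PBAF bromodomain genes Brd7 and Pbrm1 had the highest mean levels, followed by Arid1a. Bcl11a was the exception, at 0.45 ± 0.30 RPKM (mean ± SD, n = 12), and reached 1 RPKM in Retro-orbital tumor 1 alone.

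**Figure D1:**
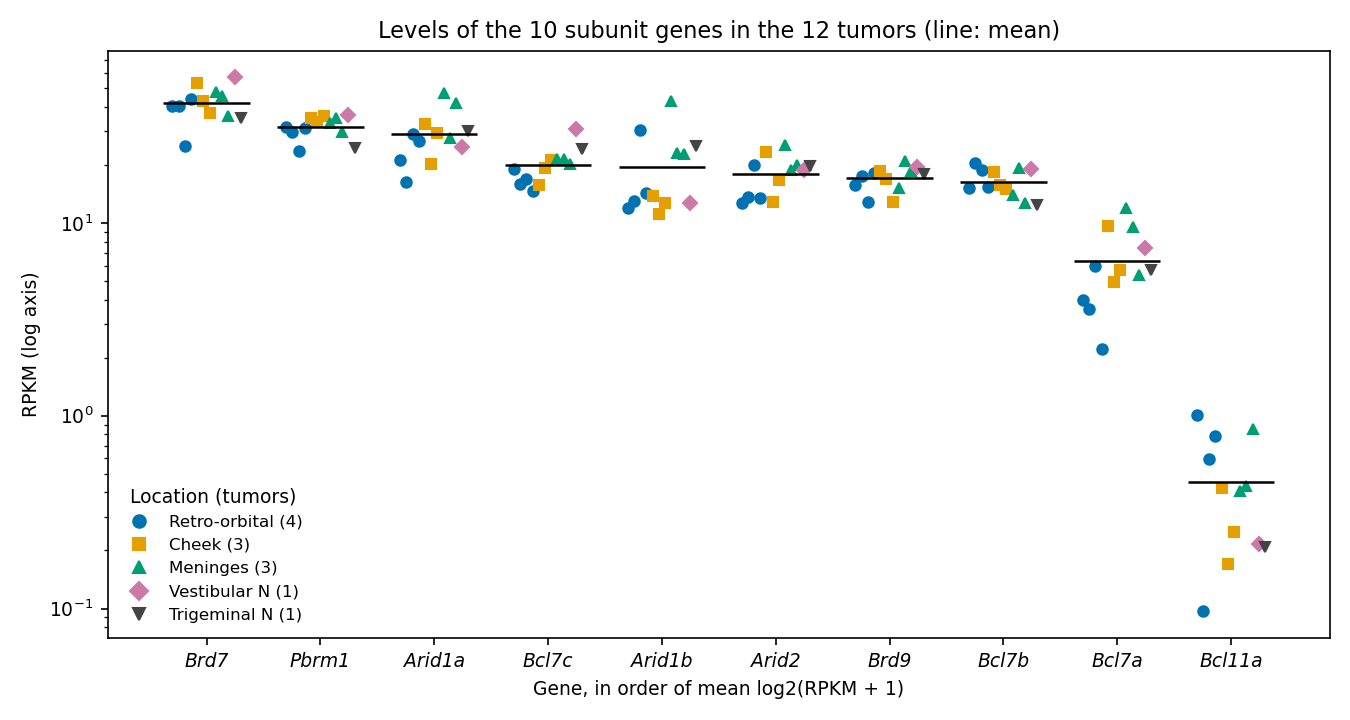
Level of each of the 10 genes (RPKM, log axis) in each of the 12 tumors, with colors and shapes for the locations and a line at the mean. Brd7, Pbrm1 and Arid1a lead with means of 41.9, 31.6 and 28.9 RPKM, 5 genes lie close together around 16.4 to 20.1 RPKM, and Bcl7a and Bcl11a lie below.

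Brd7, a bromodomain subunit of PBAF, had a mean of 41.9 ± 8.52 RPKM (SD, n = 12), with a lowest value of 24.9 in Retro-orbital tumor 3, a median of 41.5 and a highest value of 56.8 in the Vestibular N tumor. Pbrm1, which reads acetylated histones through several bromodomains, had 31.6 ± 4.20 RPKM, from 23.7 in Retro-orbital tumor 3 to 36.3 in the Vestibular N tumor. Arid1a, whose protein is the largest subunit of BAF, had 28.9 ± 8.65 RPKM, from 16.4 in Retro-orbital tumor 2 to 47.1 in Meninges tumor 1. Brd7 and Pbrm1 thus had their lowest and their highest value in the same tumors, which were not those of Arid1a.

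Bcl7c, Arid1b, Arid2, Brd9 and Bcl7b formed a middle group. Bcl7c had 20.1 ± 4.41 RPKM and Bcl7b 16.4 ± 2.76 RPKM. Arid1b, the paralog of Arid1a, had 19.4 ± 9.76 RPKM but a median of 14.0, because 5 tumors lay at 22.8 RPKM or above and the other 7 at 14.2 or below. Arid2 had 17.9 ± 4.21 RPKM and Brd9, whose bromodomain marks ncBAF, 17.1 ± 2.48 RPKM. Bcl7a was lower, at 6.33 ± 2.82 RPKM, and ranged from 2.21 in Retro-orbital tumor 4 to 11.9 in Meninges tumor 1.

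The deposited values gave whole fragments in all tumors at a length of 2370 bases for Brd7 and 8117 for Pbrm1, while GENCODE M21 has 5244 and 8846 exonic bases for these genes. The p-values below cover the spread between tumors and not this choice of length. With all exonic bases as the length, tried after seeing the data, the mean was 18.95 for Brd7, 28.96 for Pbrm1, 5.91 for Brd9 and 2.68 for Bcl7c, and 7 of the 45 pairs of genes changed their order.

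The order was read against the spread over tumors by the difference of log2(RPKM + 1) within each tumor, with an exact two-sided sign-flip permutation test over all sign patterns of the 12 tumors and Benjamini-Hochberg adjustment over all 45 pairs of the 10 genes. Of the 45 pairs, 34 differed at an adjusted p under 0.05. The smallest p this design allows is 0.0004883, which adjusted to 0.0008138. Brd7 was above Pbrm1 in 12 of 12 tumors, by 0.38 on the log2 scale (SD 0.18, exact permutation test, adjusted p = 0.0008138). With all exonic bases as the length this order turned, with Pbrm1 above Brd7 in 12 of 12 tumors, by 0.60 (exact permutation test, adjusted p = 0.0006658). Arid1a was above Bcl7c, the next in order, in 11 of 12 tumors and by 0.48 (SD 0.46, exact permutation test, adjusted p = 0.00618).

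Pbrm1 and its neighbor Arid1a were not separated, at a difference of Arid1a minus Pbrm1 of -0.17 (SD 0.46, exact permutation test, adjusted p = 0.2677), and Arid1a was the higher in 4 of 12 tumors. The neighbors in the middle group did not differ beyond their spread either. For Bcl7c and Arid1b the adjusted p was 0.5147, for Arid1b and Arid2 0.8936, for Arid2 and Brd9 0.6904, and for Brd9 and Bcl7b 0.5316 (all exact permutation tests). With all exonic bases as the length, these neighbors other than Arid1b and Arid2 were separated, at an adjusted p of 0.0006658 by the exact permutation test, and Arid1a was below Pbrm1 by 0.51 at 0.007126. Arid1b minus Arid2 was 0.02 and Arid2 minus Brd9 0.05 on the log2 scale, and both turned below 0 when single tumors were left out, down to -0.05 and -0.01. Bcl7a lay below Bcl7b in 12 of 12 tumors, by 1.33, and above Bcl11a in 12 of 12 tumors, by 2.26 (both exact permutation tests, adjusted p = 0.0008138).

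Between the forms, the PBAF genes did not have one common level. Arid2, which is needed to assemble PBAF, was below Pbrm1 in 12 of 12 tumors, by 0.80 (SD 0.39), and below Brd7 in 12 of 12, by 1.19 (SD 0.43), both with an adjusted p of 0.0008138 by the exact permutation test. The distance from Brd7 shrank to 0.32 with all exonic bases as the length (exact permutation test, adjusted p = 0.02986). The ratio of Pbrm1 to Arid2 in RPKM ran from 1.18 in Retro-orbital tumor 3 to 2.61 in Cheek tumor 2. Brd7 was above Brd9, the bromodomain gene of ncBAF, in 12 of 12 tumors, by 1.24 (SD 0.24, exact permutation test, adjusted p = 0.0008138), and the ratio of Brd7 to Brd9 lay between 1.93 and 3.14.

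Arid1a and Arid1b can fill the same place in BAF. Arid1a was the higher of the pair in 11 of 12 tumors, by 0.62 on the log2 scale (SD 0.42, exact permutation test, adjusted p = 0.001465), and in 8 of 12, by 0.30, with all exonic bases as the length (exact permutation test, adjusted p = 0.04175). Arid1b held 29.6% of the summed Arid1a and Arid1b level in Cheek tumor 1, 30.1% in Cheek tumor 3, 33.8% in the Vestibular N tumor, 34.8% in Retro-orbital tumor 4, 35.4% in Meninges tumor 3, 35.6% in Cheek tumor 2, 35.9% in Retro-orbital tumor 1, 44.1% in Retro-orbital tumor 2, 45.3% in the Trigeminal N tumor, 45.7% in Meninges tumor 2, 47.8% in Meninges tumor 1 and 51.1% in Retro-orbital tumor 3. Retro-orbital tumor 3 was the single tumor in which Arid1b, at 30.1 RPKM, exceeded Arid1a, at 28.8 RPKM. All cheek tumors lay in the lower part of this range, while the meninges and retro-orbital tumors were spread over most of it.

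The Bcl7 proteins are paralogs that bind the ATPase part of the complex. Bcl7c held 35.9% to 57.3% of their summed level, Bcl7b 29.3% to 51.2% and Bcl7a 6.89% to 25.2%. Bcl7b minus Bcl7c was -0.27 on the log2 scale (SD 0.40, exact permutation test, adjusted p = 0.05399), with Bcl7b the higher in 4 of 12 tumors. With all exonic bases as the length, which is 7222 in place of 965 bases for Bcl7c, Bcl7b was the higher in 12 of 12, by 1.74 (exact permutation test, adjusted p = 0.0006658), and Bcl7a and Bcl7c were no longer separated (exact permutation test, adjusted p = 0.4073). The share of Bcl7a was lowest in Retro-orbital tumor 4 and highest in Meninges tumor 1, followed by Cheek tumor 1 at 21.97%.

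**Figure D2:**
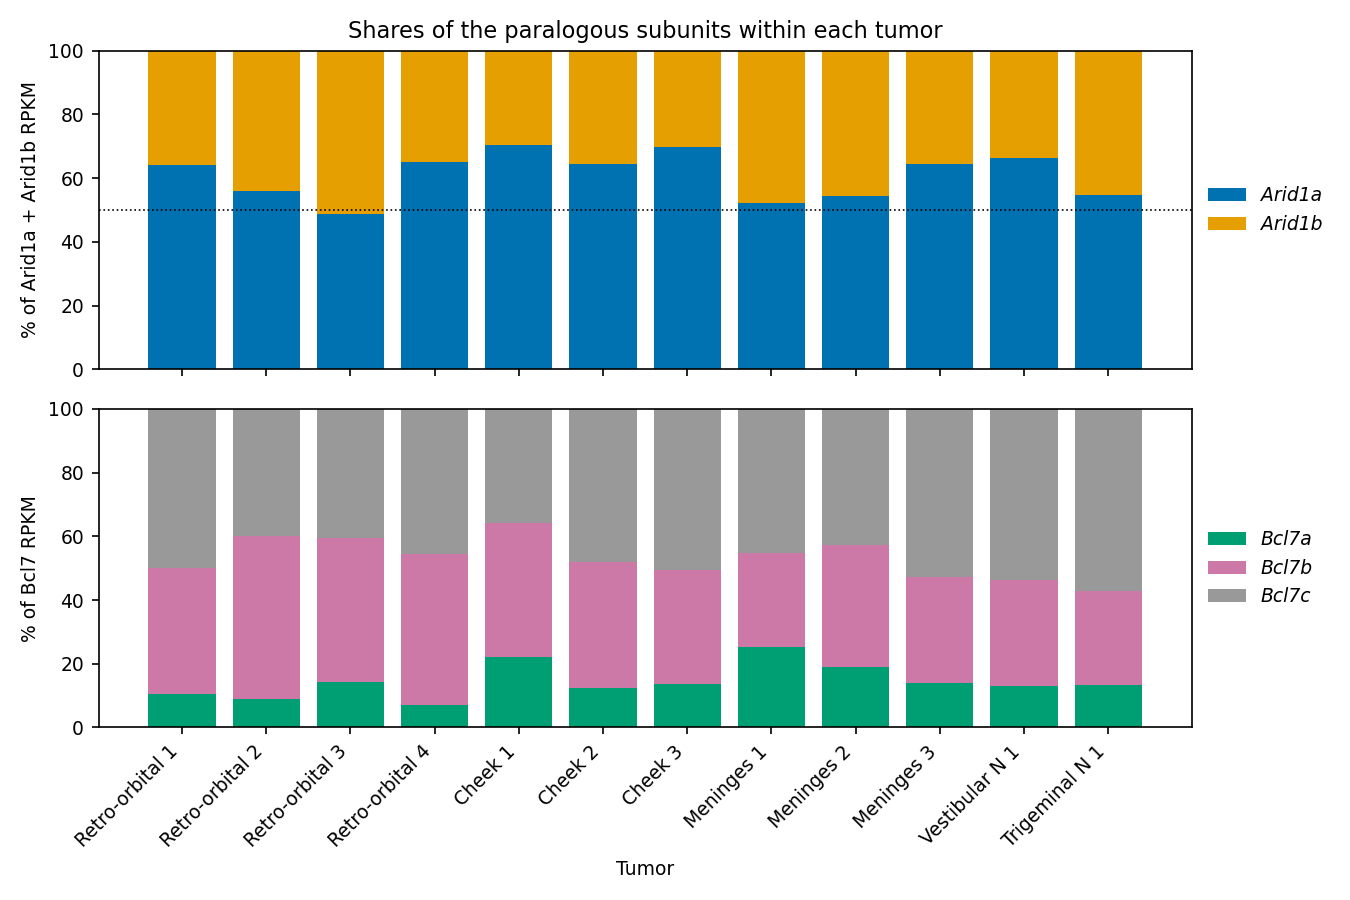
Share of each paralog within each tumor (percent of the summed RPKM), for Arid1a and Arid1b above and for Bcl7a, Bcl7b and Bcl7c below, with a dotted line at 50%. Arid1b crosses this line in Retro-orbital tumor 3 alone, at 51.1%, and Bcl7a takes the smallest share of the Bcl7 sum in all 12 tumors at the lengths behind the deposited values.

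The members varied by different amounts over the tumors. Pbrm1, Brd9 and Bcl7b were among the steadier genes, with an SD of log2(RPKM + 1) of 0.20, 0.21 and 0.23, which stood at the 3.55th, 4.66th and 7.91th percentile of 15043 genes that reached 1 RPKM in 3 or more tumors. By this SD, Arid1b and Bcl7a varied most, at 0.60 and 0.56, the 63.5th and 59.9th percentile. Bcl11a had an SD of 0.28, but adding 1 compresses values as low as its own. From lowest to highest RPKM it ranged 10.42-fold, beside 5.40-fold for Bcl7a and 3.86-fold for Arid1b. The median SD of the 10 genes was 0.29, beside 0.48 over all 15043 genes, among which Bcl11a is not counted. The highest value of 4 of the 10 genes, Arid1a, Arid1b, Arid2 and Bcl7a, fell in Meninges tumor 1, and that of Brd7, Pbrm1 and Bcl7c in the Vestibular N tumor.

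The comparison between locations asked whether the subunit genes differed between tumors of the orbit, cheek and meninges. It used the 10 tumors of the locations with at least 3 tumors and limma on log2(RPKM + 1) over the 14745 genes that reached 1 RPKM in 3 or more of these tumors. Bcl11a did not pass this filter, and none of the other 9 genes differed at an adjusted p under 0.05. Over all genes tested the F test over the 3 locations called 6, or 0.0407%, so few calls of any kind were made. At an unadjusted p under 0.05 stood 2 of the 9 members, Arid1b and Bcl7a, beside 14.3% of all genes. Their limma adjusted p was 0.3229 and 0.3446.

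Arid1b had the largest difference between locations among the members. It stood at 11.9, 12.9, 30.1 and 14.2 RPKM in the retro-orbital tumors, at 13.7, 11.2 and 12.7 in the cheek tumors, at 43.1, 23.1 and 22.8 in the meninges tumors, at 12.6 in the Vestibular N tumor and at 24.9 in the Trigeminal N tumor. Every meninges tumor was above every cheek tumor, which held for 19.2% of all genes tested, and Retro-orbital tumor 3 stood with the meninges tumors. Meninges minus cheek was 1.12 on the log2 scale (SE 0.36, limma adjusted p = 0.2021). When a correlation was estimated between tumors that share an identifier number, the difference was 1.51 (adjusted p = 0.0004041 with an estimated correlation). This correlation of 0.93 rested on 2 pairs of tumors, and the same setting raised the calls over all genes in this contrast from 7 to 4243. Under it Bcl7c, at 0.39 (adjusted p = 0.01181), and Bcl7b, at -0.34 (adjusted p = 0.03101), also passed for meninges minus cheek.

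The tumors with high Arid1b also had high astrocyte markers. Gfap, Aqp4, Slc1a3 and Aldh1l1 summed to 165.1 to 429.8 RPKM in the meninges tumors, 2.13 to 22.2 in the cheek tumors, 1.60 to 22.9 in 3 of the retro-orbital tumors and 288.1 in Retro-orbital tumor 3, 75.6 in the Vestibular N tumor and 138.1 in the Trigeminal N tumor, and none of the 4 was at 0 in any tumor. The 5 tumors with the highest astrocyte sums were the same 5 that had the highest Arid1b. Among them, Retro-orbital tumor 3 and the Trigeminal N tumor share an identifier number. Over the 12 tumors Pearson's r between log2 levels was 0.85 and Spearman's rho 0.83 (permutation tests, p = 0.00076 and p = 0.00126). Without Retro-orbital tumor 1 and Cheek tumor 3, the tumors farthest from the median of the log2 astrocyte sum, r was 0.85. Among 110 relations between members and marker lists, the adjusted p was 0.05665 for r and 0.1072 for rho, and none of the 110 was under 0.05. Arid1b also gave r = 0.65 with the oligodendrocyte list and 0.56 with the Schwann cell list (permutation tests, adjusted p = 0.2131 and 0.4754). Of the genes of these lists, 4 of 4 and 4 of 5 correlated positively with it. The part of RNA of astrocytes or of these other cells in the Arid1b levels was not tested.

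**Figure D3:**
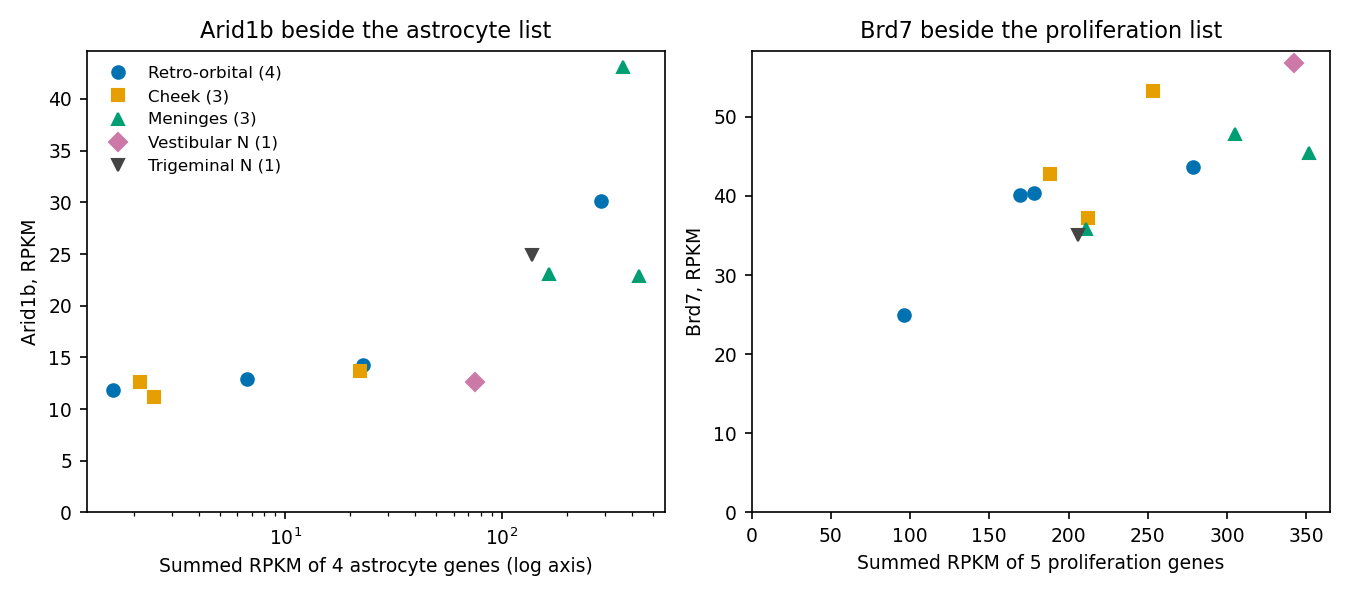
Left, Arid1b (RPKM) against the summed RPKM of 4 astrocyte genes (log axis), and right, Brd7 (RPKM) against the summed RPKM of 5 proliferation genes, with 1 point for each of the 12 tumors. The 5 tumors with astrocyte sums of 138.1 RPKM or more hold Arid1b at 22.8 RPKM or above, and the lowest proliferation sum, 96.2 RPKM in Retro-orbital tumor 3, goes with the lowest Brd7.

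Arid1a stood at 21.2, 16.4, 28.8 and 26.6 RPKM in the retro-orbital tumors, at 32.7, 20.2 and 29.4 in the cheek tumors and at 47.1, 27.4 and 41.6 in the meninges tumors, with 24.8 in the Vestibular N tumor and 30.1 in the Trigeminal N tumor. Of the meninges tumors, 2 lay above all others, while Meninges tumor 2 lay among the rest. Meninges minus retro-orbital was 0.71 (SE 0.27, limma adjusted p = 0.514). Bcl7a stood at 4.003, 3.59, 5.98 and 2.21 RPKM in the retro-orbital tumors, at 9.61, 4.94 and 5.69 in the cheek tumors and at 11.9, 9.55 and 5.35 in the meninges tumors, with 7.37 and 5.67 in the Vestibular N and Trigeminal N tumors. Meninges minus retro-orbital was 1.001 for Bcl7a (SE 0.35, limma adjusted p = 0.5024), and the groups overlapped through Meninges tumor 3 and Retro-orbital tumor 3. In this contrast 3 of the 9 members, Arid1a, Arid1b and Bcl7a, had an unadjusted p under 0.05, beside 9.14% of all genes, and 3 genes, or 0.0203%, were called over all.

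Pbrm1 had values of 31.4, 29.7, 23.7 and 30.9 RPKM in the retro-orbital tumors and of 35.2, 33.4 and 36.0 in the cheek tumors, which did not overlap. Such a separation upwards held for 5.72% of all genes, and cheek minus retro-orbital was 0.27 (SE 0.15, limma adjusted p = 0.5016). In the meninges tumors Pbrm1 stood at 33.0, 35.2 and 29.7 RPKM, and in the Vestibular N and Trigeminal N tumors at 36.3 and 24.4. Bcl7c had values of 19.1, 15.97, 16.8 and 14.6 RPKM in the retro-orbital tumors and 21.4, 21.4 and 20.1 in the meninges tumors. These also did not overlap, as for 6.82% of all genes, at 0.33 (SE 0.16, limma adjusted p = 0.5632). The Vestibular N tumor exceeded both groups in Bcl7c, at 30.8 RPKM.

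**Figure D4:**
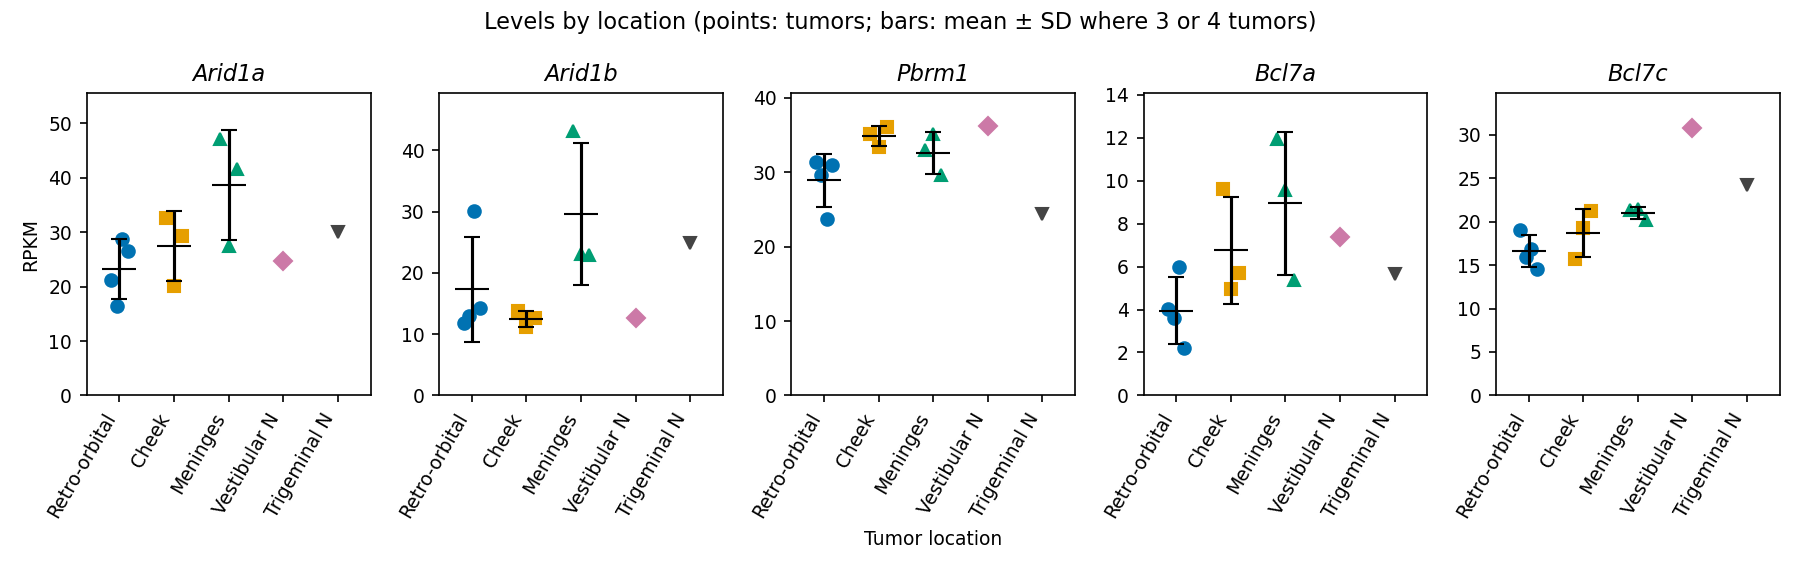
Levels (RPKM, axes from 0) of Arid1a, Arid1b, Pbrm1, Bcl7a and Bcl7c by tumor location, with 1 point per tumor and bars for mean ± SD where a location has 3 or 4 tumors. Meninges tumors lie at 22.8 RPKM or above for Arid1b and cheek tumors at 13.7 or below, while Retro-orbital tumor 3 lies at 30.1.

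Brd7, Brd9, Arid2 and Bcl7b overlapped between all 3 locations. Their limma F test gave adjusted p values of 0.6909, 0.7771, 0.4651 and 0.7847. Arid2 had means of 14.9 ± 3.43 RPKM (SD, n = 4) in retro-orbital, 17.6 ± 5.40 (n = 3) in cheek and 21.4 ± 3.46 (n = 3) in meninges tumors. Brd9 had means of 16.1 ± 2.33, 16.1 ± 2.90 and 18.3 ± 2.92 RPKM in the same order. As a list, the 9 members had a median difference of 0.21 for cheek minus retro-orbital, 0.33 for meninges minus retro-orbital and 0.18 for meninges minus cheek, beside -0.02, 0.13 and 0.16 over all genes. After division by median-of-ratios size factors the medians over all genes were 0.01, -0.01 and -0.003, so this scaling moved the meninges contrasts by over 0.1. The members' medians were then 0.24, 0.17 and -0.01, and for meninges minus cheek the count of members with a higher mean went from 6 of 9 to 4 of 9. For this contrast the count was 7 of 9 after rescaling to the same sum and 7 of 9 after quantile normalization. The members' medians were then 0.23 and 0.10, beside 0.21 and -0.02 over all genes. In the cheek contrasts, 4 genes (0.0271%) were called over all for cheek minus retro-orbital and 7 (0.0475%) for meninges minus cheek. No member had an unadjusted p under 0.05 in the former, beside 12.0% of all genes, and 1 member, Arid1b, in the latter, beside 17.0%.

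Over the 12 tumors, some members rose and fell together. All 45 pairs were examined with Pearson's r and Spearman's rho of log2(RPKM + 1), by permutation tests with 100000 resamples and Benjamini-Hochberg adjustment over the 45. For r, 3 pairs had an adjusted p under 0.05, and for rho 1 pair. Tumors of 1 location are fewer than 6, so no value within a location can be given, and depth and tissue content are common to both genes of a pair.

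Arid1a and Arid2, the ARID subunits of BAF and PBAF, correlated with r = 0.82 and rho = 0.87 (permutation tests, p = 0.00089 and p = 0.00055, adjusted p = 0.01515 and 0.02475). Without Retro-orbital tumor 2 and Meninges tumor 1, the tumors farthest from the median of Arid1a, r was 0.75. The adjusted p for r was 0.05295 without Cheek tumor 2, 0.084 without Meninges tumor 1 and 0.1 after division by size factors. The ratio of Arid1a to Arid2 stayed between 1.201 and 2.08. Arid2 and Bcl7a gave r = 0.83 and rho = 0.76 (permutation tests, p = 0.00101 and p = 0.00561, adjusted p = 0.01515 and 0.06952), r = 0.88 without Retro-orbital tumor 1 and Cheek tumor 2, and an adjusted p of 0.084 without Meninges tumor 1. The astrocyte sum gave r = 0.70 with Arid1a and 0.76 with Arid2 (permutation tests, p = 0.01055 and p = 0.00574, adjusted p = 0.1451 for both over the 110 relations), and all 4 astrocyte genes correlated positively with each. Other lists gave values of like size. For Arid1a, r was 0.76 with the plasmacytoid dendritic cell list and 0.72 with the oligodendrocyte list (permutation tests, adjusted p = 0.1404 and 0.1451). For Arid2, r was 0.71 and 0.53 with the same lists (permutation tests, adjusted p = 0.1451 and 0.5247). Without the 2 tumors farthest from the median of each list, these were 0.49 and 0.41 for Arid1a and 0.54 and 0.26 for Arid2. For the astrocyte list r was then 0.79 with Arid1a and 0.75 with Arid2. Ly6d made up most of the plasmacytoid dendritic cell sum, with a mean of 60.5 of 63.4 RPKM. Of the 4 genes of that list, 4 correlated positively with Arid1a and 2 with Arid2. With the neuron list, r for Arid2 was -0.64 (permutation test, adjusted p = 0.2131), though 5 of the 6 neuron genes correlated positively. The sum of Vim, Acta2, Fabp7 and Smarcb1 gave r = -0.70 with Arid2 and -0.49 with Arid1a (permutation tests, p = 0.01212 and p = 0.1039, adjusted p = 0.1481 and 0.5247). Most of this sum came from Vim, and 3 of its 4 genes correlated positively with Arid2 and 3 with Arid1a. The part of tissue content in these pairs was not tested.

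Pbrm1 and Brd7, both PBAF subunits, gave r = 0.81 and rho = 0.76 (permutation tests, p = 0.00068 and p = 0.00608, adjusted p = 0.01515 and 0.06952). This relation rested in part on Retro-orbital tumor 3, which held the lowest value of both. Without it r was 0.67 and the adjusted p 0.2053, and without it and the Trigeminal N tumor r was 0.58. The Trigeminal N tumor had the next lowest value of both genes and shares an identifier number with Retro-orbital tumor 3. The permutation tests counted these tumors as independent. If they share an animal, the low end of the relation rests on that animal alone, which was not tested. Without Meninges tumor 1, r was 0.81 with an adjusted p of 0.0648. Arid2, the ARID subunit of the same complex, showed r = -0.04 with Pbrm1 and 0.08 with Brd7. After quantile normalization none of the 45 pairs had an adjusted p under 0.05 for r, and the r of the 3 pairs lay between 0.66 and 0.79.

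**Figure D5:**
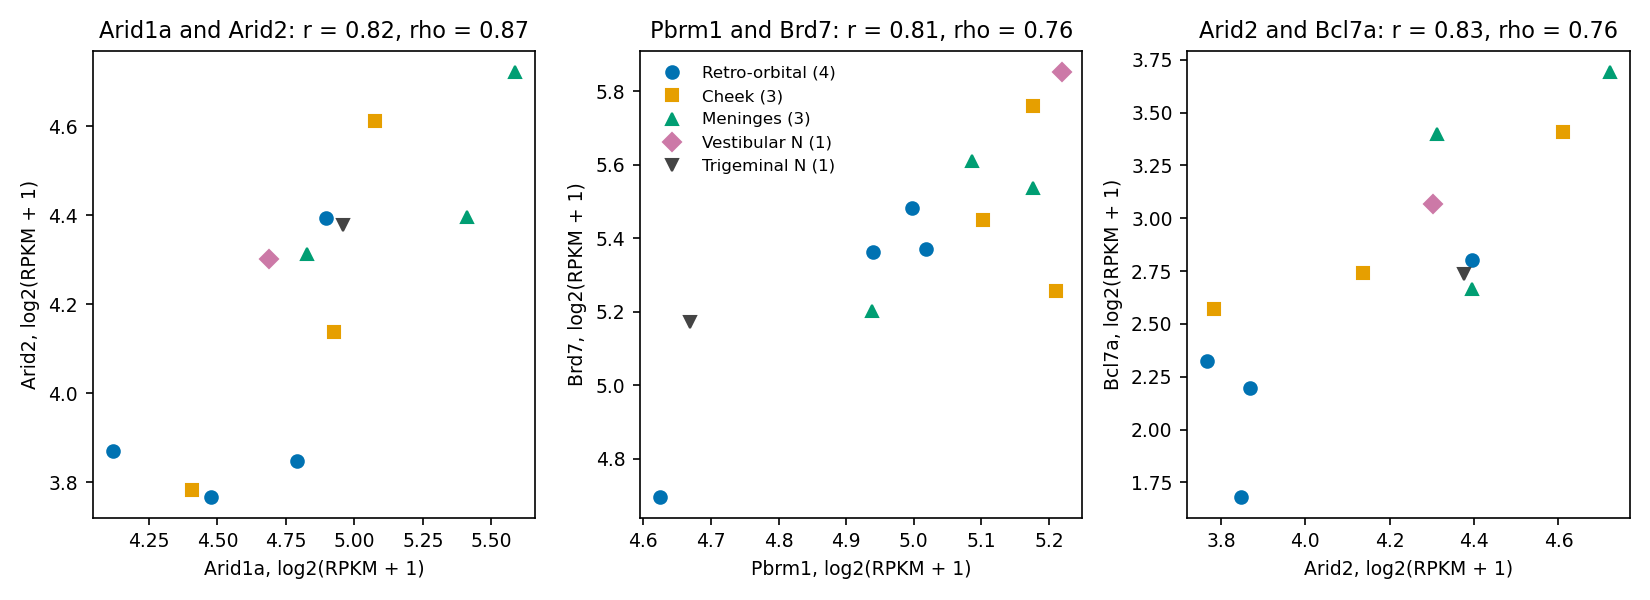
Levels as log2(RPKM + 1) of Arid1a and Arid2, Pbrm1 and Brd7, and Arid2 and Bcl7a against each other, with 1 point per tumor in the color and shape of its location. The r values are 0.82, 0.81 and 0.83, and Retro-orbital tumor 3 lies at the lower left end of the plot of Pbrm1 and Brd7.

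Proliferation genes were set beside the bromodomain genes, and none of these relations passed the adjusted test. Mki67, Top2a, Ccnb1, Mcm2 and Pcna summed to 96.2 RPKM in Retro-orbital tumor 3, the lowest, and to 352.0 in Meninges tumor 2, the highest, and each of the 5 correlated positively with Brd7 and with Pbrm1. For Brd7 and the sum, r was 0.85 and rho 0.74 (permutation tests, p = 0.00103 and p = 0.00763), with r = 0.73 without the 2 tumors farthest from the median and adjusted p values of 0.05665 and 0.1679 over the 110 relations. For Pbrm1, r was 0.71 and rho 0.64 (permutation tests, p = 0.00904 and p = 0.02793, adjusted p = 0.1451 and 0.3486), and r fell to 0.42 without the same 2 tumors. For Brd9, the bromodomain gene of ncBAF, r was 0.65 and rho 0.56 (permutation tests, p = 0.02325 and p = 0.06266, adjusted p = 0.2131 and 0.4491), and r fell to 0.24 without these 2 tumors. The part of proliferation in these levels was not tested.

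As the r of Pbrm1 and Brd7 passed the test over all 12 tumors, though not without Retro-orbital tumor 3, the bases before their RefSeq transcription starts are shown, 250 each, on GRCm38.p6. Pbrm1 lies on the plus strand and the window is chr14:31018888-31019137. Brd7 lies on the minus strand and the window is chr8:88362173-88362422, printed 5′ to 3′ along the gene. GENCODE M21 starts Brd7 further upstream, so the last 22 bases of this window, with 2 bases of the E2F-type match, lie inside the gene by that annotation. Capitals mark matches on either strand to 6 motifs that were picked after the sequences had been read: the E-box CACGTG, the GC box GGGCGG, the ETS core CCGGAA, the core TGACG of the cAMP response element, the E2F-type motif TTTCCCGC, and CCAAT.
Pbrm1: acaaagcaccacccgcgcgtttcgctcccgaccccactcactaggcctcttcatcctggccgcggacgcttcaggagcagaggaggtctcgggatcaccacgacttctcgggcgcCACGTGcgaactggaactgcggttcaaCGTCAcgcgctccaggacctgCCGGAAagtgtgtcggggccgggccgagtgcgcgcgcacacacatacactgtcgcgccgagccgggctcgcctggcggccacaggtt
Brd7: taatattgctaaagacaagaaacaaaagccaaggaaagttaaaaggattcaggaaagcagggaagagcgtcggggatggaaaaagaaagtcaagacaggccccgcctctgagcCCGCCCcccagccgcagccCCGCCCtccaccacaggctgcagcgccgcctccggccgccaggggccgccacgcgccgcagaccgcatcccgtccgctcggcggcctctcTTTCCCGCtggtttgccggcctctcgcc

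The Pbrm1 window held 1 match each to the E-box, the ETS core and the cAMP core, and the Brd7 window 2 to the GC box and 1 to the E2F-type motif, so the windows shared no motif of the 6. None of the matches overlapped another. Of 32851 windows of the same length before RefSeq starts, 6.02% held the E-box, 12.0% the ETS core, 17.8% the cAMP core, 32.7% the GC box, 33.8% CCAAT and 0.895% the E2F-type motif. Entries were matched by symbol for 8 of the 10 members. The GC box was found for 7 of these 8, all but Pbrm1, the E-box also for Bcl7b and Bcl7c, and the E2F-type motif also for Arid1a. A match describes letters in the window and does not show that a factor binds there.

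The genes whose pattern was most like that of a member, by r over the 12 tumors among 15033 genes, are given as a description. For Brd7 they were Nudt5, an enzyme of nucleotide sugar metabolism, and Gpn1, a GTPase, at r = 0.97 and 0.96. For Pbrm1 they were Papola, a poly(A) polymerase, at 0.95 and 4930430F08Rik at 0.95. Arid1a was closest to Ambra1, an autophagy regulator, at 0.95, and Arid2 to Cacna2d3, a calcium channel subunit, and Mapkbp1, both at 0.94. These values are higher than those between any pair of members, but they were picked as the highest among 15033 genes. The pairs of members are far fewer, so this comparison cannot show whether a member follows these genes more closely than other members.

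Arid1b was closest to Foxf2, a mesenchymal forkhead factor, at r = 0.95 (rho = 0.73), and to Vnn1 at 0.94 (rho = 0.75). Foxf2 ran from 0.06 to 22.7 RPKM over the tumors. Bcl7a was closest to Calcr, the calcitonin receptor, and to Twist1, a mesenchymal transcription factor at 10.9 to 192.2 RPKM, both at r = 0.90. Brd9 was closest to Amn1 at 0.92 and Zfp160 at 0.86, Bcl7b to Urod, an enzyme of heme synthesis, and the kinase Rock1, both at 0.84, and Bcl7c to D7Ertd443e at 0.91 and Ost4 at 0.87.

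Bcl11a encodes a zinc finger factor that joins BAF and is known for its roles in neurons and red cell precursors. It stood at 1.01, 0.10, 0.60 and 0.79 RPKM in the retro-orbital tumors, 0.42, 0.17 and 0.25 in the cheek tumors, 0.41, 0.43 and 0.85 in the meninges tumors, and 0.22 and 0.21 in the Vestibular N and Trigeminal N tumors. These levels rest on 20 to 239 fragments per tumor at the smallest gene length that gives whole fragments. The retro-orbital tumors alone spanned both the lowest and the highest value. The genes of most like pattern were AI115009 and Itgax, an integrin of dendritic cells and macrophages, at r = 0.93. They were picked as the highest among 15033 genes, and the leukocyte list gave r = 0.07 with Bcl11a (permutation test, adjusted p = 0.9753).

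The other genes of the complexes were taken as a list of 21. Of these, 17 were at 1 RPKM or more in all 12 tumors. In the location tests 19 of the 21 were tested and none was called, in the F test or in any contrast. Phf10, a further PBAF subunit, had 40.8 ± 5.75 RPKM (SD, n = 12), beside 41.9 for Brd7. Dpf2, which joins BAF, had 14.4 ± 4.08 RPKM. Gltscr1 and Gltscr1l, the scaffold genes of ncBAF now named Bicra and Bicral, had 2.34 ± 0.82 and 4.89 ± 0.92 RPKM, below Brd9 in every tumor at the lengths behind the deposited values. All exonic bases as the length, which took the mean of Brd9 to 5.91 and that of Brd7 to 18.95 RPKM, were not tried for these other genes. The ATPase gene Smarca4 had 50.04 ± 11.5 RPKM and its paralog Smarca2 20.6 ± 13.2. As a list, the 19 had medians of -0.08 for cheek minus retro-orbital, 0.37 for meninges minus retro-orbital and 0.32 for meninges minus cheek, beside the medians over all genes given above. Smarcc2, a core subunit, had the lowest adjusted p in the meninges and cheek contrast, at a difference of 0.89 (SE 0.21, limma adjusted p = 0.1224).

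The members lie on 9 chromosomes of GRCm38, by GENCODE M21. The BAF genes are Arid1a at chr4:133679008-133756769 (minus strand) and Arid1b at chr17:4994332-5347656 (plus strand). The PBAF genes are Arid2 at chr15:96287518-96404992 (plus strand), Pbrm1 at chr14:31019138-31121592 (plus strand) and Brd7 at chr8:88331039-88362194 (minus strand). Brd9 lies at chr13:73937811-73960895 (plus strand). The accessory genes are Bcl7a at chr5:123343834-123374992 (plus strand), Bcl7b at chr5:135168283-135181855 (plus strand), Bcl7c at chr7:127661456-127708933 (minus strand) and Bcl11a at chr11:24078056-24174123 (plus strand). At 5 of the 10 genes, another gene of this annotation shares exonic bases, and for Pbrm1, Bcl7a and Bcl11a it is a protein-coding or antisense gene on the opposite strand, with 15 shared bases for Gnl3, 13 for Gm15860 and 316 for 4930538E20Rik. For Arid2 and Bcl7c it is a microRNA. The libraries keep strand, but whether the counting used it is not stated, so reads of such partners cannot be told apart. Arid1a and Arid1b, and the Bcl7 genes, are paralogs that were counted from uniquely mapped reads.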

How the data were processed

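Total RNA of 12 tumors was depleted of ribosomal RNA and made into stranded libraries. The authors used STAR against mm10, took the reads that mapped to 1 place, counted them on RefSeq genes with HTSeq and deposited 1 RPKM value per gene and tumor. The transcript length and read total behind the RPKM are not given in the sources used here. A further 27 rows have a date where a symbol belongs, and these stayed in the tests and are never named. Totals of fragments were worked out from the spacing of low RPKM values, with GENCODE M21 lengths, and the length behind each member's RPKM as the smallest that gives whole fragments (within 0.02) in all 12 tumors.

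The members and all gene lists were chosen with earlier results of these data known. Locations follow the labels, and the 2 nerve locations with 1 tumor each entered no location test. Location tests used limma 3.58.1 in R 4.3.3 on log2(RPKM + 1), with trended and robust prior variance, for genes at 1 RPKM or more in 3 or more of the 10 tumors, an F test and 3 contrasts that share tumors, and Benjamini-Hochberg adjustment over all 14745 genes at 0.05. Fold changes on this scale understate changes of low genes. Levels of pairs were compared by exact sign-flip permutation tests and pattern by permutation tests of r and rho, with scipy 1.17.1 and numpy 2.4.6 under Python 3.11.15. Genes named are the 10 members, 21 other SWI/SNF genes, the 2 non-members of highest r to each member, and genes of the marker lists; 1 of these non-members and a further marker list are not reported here. The depth, limma and permutation steps were tested on simulated data. Alternatives changed the pseudocount, filter, scaling, prior variance, independence of tumors and each tumor in turn, and, added after seeing the data, the gene length.

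Markers were fixed as lists for plasmacytoid dendritic cells, leukocytes, neurons, astrocytes, oligodendrocytes, Schwann cells, skeletal muscle, endothelium, proliferation and rhabdoid tumor. Their sums over tumors are given here or beside a result: 0.82 to 429.7 RPKM for plasmacytoid dendritic cells (Ly6d made up 427.7 of the highest sum), 13.9 to 168.2 for neurons, 2.76 to 66.5 for oligodendrocytes, 24.9 to 173.6 for Schwann cells and 14.2 to 56.3 for endothelium.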

Additional observations from a re-analysis of the deposited data

Results flagged for a closer look

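Retro-orbital tumor 3 stood far above the other 3 retro-orbital tumors in Arid1b and in Arid2. Arid1b was 30.1 RPKM there and 11.9 to 14.2 in the others, a gap of 0.8711 of the range of the group. Arid2 was 20.03 RPKM there and 12.6 to 13.6 in the others, a gap of 0.865. Both exceed Dixon's 95% critical value for 4 tumors. The 10 members were screened in this location alone, the one with 4 tumors, and chance alone flags about 1 in 20. This tumor had the most fragments, 57128422, the lowest proliferation sum, 96.2 RPKM, and an astrocyte sum of 288.1 RPKM beside 1.60 to 22.9 in the other 3. The part of each in these values was not tested.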

How the results depend on the processing

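No member passed the F test over locations under any alternative, except Arid1b (adjusted p = 0.001436) and Bcl7c (adjusted p = 0.02969) with a correlation estimated between tumors that share an identifier number. In the 3 contrasts, each fitted under the same 17 alternatives, member calls came in meninges minus cheek alone and under this setting alone (Arid1b, Bcl7b and Bcl7c). The next lowest adjusted p was 0.09623, for Arid1b without Retro-orbital tumor 3. Counts of calls over all genes were small and unstable, and the cause was not tested. The F test called 6 genes, 10 without the filter, 19 with a constant prior variance, 2802 with the estimated correlation and 0 to 198 when single tumors were left out. Cheek minus retro-orbital called 4, then 2 without the filter, 2 with size factors, 2 with the estimated correlation and 0 to 147 without single tumors. Meninges minus retro-orbital called 3, then 7 without the filter, 6 with a constant prior variance and 0 to 41 without single tumors. Meninges minus cheek called 7, then 2 with a pseudocount of 0.1, 18 without the filter, 13 after quantile normalization, 22 with a constant prior variance, 4243 with the estimated correlation and 0 to 527 without single tumors. The highest of these came without Cheek tumor 1 (198, 147 and 527) and without Retro-orbital tumor 3 (41, beside 56 in the F test and 65 for meninges minus cheek). Without Cheek tumor 2, Cheek tumor 3 or Meninges tumor 1 the F test called 0.

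Of the pairs of members, 34 to 37 of 45 differed in level with another pseudocount or scaling and without single tumors, of which the scalings to 1 sum and by size factors move both genes of a pair alike. With all exonic bases as the length, tried after seeing the data, 41 differed, of which 30 had differed in the same direction at the length behind the deposited values, and Pbrm1 minus Brd7 turned to 0.6013, Arid1b minus Bcl7c to 2.219 and Brd9 minus Bcl7b to -0.8315. The pairs past the threshold for r numbered 3, then 0 after quantile normalization, 5 after rescaling to the same sum, and 0 to 5 without single tumors, with 0 without Meninges tumor 1 and 5 without Cheek tumor 1. Among neighbors in level, Arid1b minus Arid2 lay between -0.0486 and 0.08512 and Arid2 minus Brd9 between -0.01007 and 0.09085 when single tumors were left out. The former fell to -0.03278 without Retro-orbital tumor 3, -0.006435 without Meninges tumor 2 and -0.01035 without the Trigeminal N tumor, and the latter to -0.0005301 without Retro-orbital tumor 3.

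The replicate numbers used here only name tumors and pair none. The 2 pairs within the fitted tumors that share an identifier number entered the location fit through the estimated correlation of 0.93 above. The tests of member pairs did not take shared identifier numbers into account. Depth limits Bcl11a, at 20 to 239 fragments per tumor, and hardly the other members, at 270 or more.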
